A study of Mus musculus with 6 samples.

Results

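The MHC class I and peptide loading genes were read in sorted CD4+CD8+ double-positive thymocytes of Sox13 transgenic and wild-type mice. The group holds 9 genes, namely the heavy chain genes H2-D1 and H2-K1, the light chain gene B2m, the transporter and loading genes Tap1, Tap2 and Tapbp, and the immunoproteasome genes Psmb8, Psmb9 and Psmb10. They were chosen by name with earlier results of these data known, and each was read by every probe set annotated to that gene alone. This gave 31 of the 25470 probe sets used, and all 9 genes were among the 3237 measured in both experiments. The transgenic group was C57BL/6 mice carrying a Sox13 transgene, and the control group was their wild-type littermates of the same strain. All samples were labelled as female thymus at 6 weeks, the cells were sorted ex vivo by CD4 and CD8, and each sort pooled the cells of at least 2 mice. The promoter that drives the transgene is not given in the sources used here. In experiment 1 RNA was read on a pair of Affymetrix arrays with separate gene content, Mu11K A and Mu11K B, and in experiment 2 on U74A version 2. Each array type was hybridised with 1 sample per genotype, so the 6 arrays gave 2 independent comparisons and no replicate within an array type.

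MHC class I molecules display short peptides from inside the cell to CD8 T cells. The immunoproteasome cuts proteins into peptides, the TAP transporter carries them into the endoplasmic reticulum, and tapasin holds the empty class I molecule at the transporter until a peptide binds. A class I molecule is a heavy chain paired with beta-2-microglobulin. The genes of this pathway are known to be induced by interferons. Double-positive thymocytes are known to carry little class I on their surface and to gain it as they mature into single-positive cells.

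Values are intensities scaled so that the 2% trimmed mean of every array is 500, and anything under a floor of 100 was set to 100. The transgene served to check the labels: in experiment 1 Sox13 was below the floor in the wild type and read 5951 in the transgenic sample, and in experiment 2 it read 599.6 and 3832. The coreceptor genes Cd4, Cd8a and Cd8b1 that define the sorted cells lay between 5040.1 and 22762 in every sample in which they were measured, far above the floor. The share of probe sets above the floor ranged from 46.9% to 57.4% over the arrays. Of the 31 probe sets of the group, 28 were above the floor in at least 1 genotype and 3 were below it in both, namely 2 for H2-D1 and 1 for Tap1. The bulk samples cannot tell fewer cells of a type from less RNA per cell.

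All 14 usable probe sets of the group in experiment 1 were higher in the transgenic sample, with log2 ratios from 0.41 to 2.04 and a median of 0.76. In experiment 2, 11 of 14 were higher and 3 lower, from -0.30 to 0.72 with a median of 0.12. The median over all usable probe sets was -0.10 in experiment 1 and -0.03 in experiment 2. A log2 ratio above 0 was found for 45.0% of the probe sets of Mu11K A, 40.8% of Mu11K B and 45.9% of U74A.

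**Figure D1:**
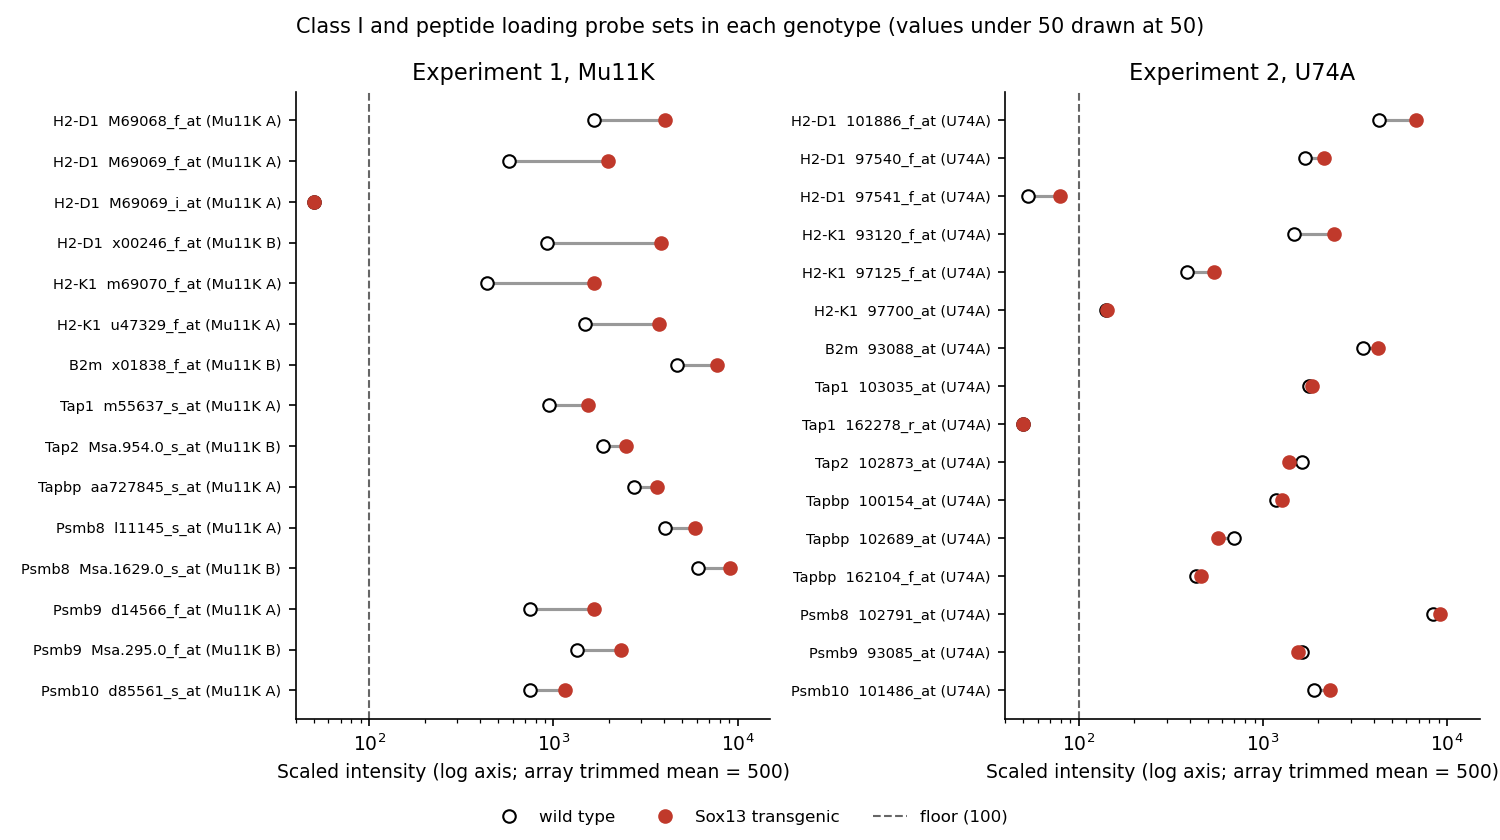
Scaled intensity of each member probe set in the wild-type (open) and Sox13 transgenic (red) sample, on a log axis, with Mu11K probe sets of experiment 1 on the left and U74A probe sets of experiment 2 on the right; each point is 1 array and the dashed line is the floor of 100. In experiment 1 the transgenic point lies to the right for all 14 probe sets above the floor, and in experiment 2 for 11 of 14, with shorter distances.

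The class I heavy chain genes had the largest ratios of the group in both experiments. H2-K1 and H2-D1 encode the classical class I heavy chains of C57BL/6 mice, and their promoters share the sites known to drive class I transcription. Both stretches are shown because these 2 genes had those largest ratios. They come from RefSeq promoters of GRCm38.p6, read 5′ to 3′ on the gene's strand, at chr17:34000353-34000463 on the minus strand for H2-K1 and chr17:35262918-35263051 on the plus strand for H2-D1. Capitals mark, in order, the core GGGATTCCC of the enhancer A kappa B site, the core of an interferon response element (AAGTGAAAC on the other strand), the core TGACG of a CRE-like site, and CCAAT boxes, which read ATTGG on the other strand.
H2-K1: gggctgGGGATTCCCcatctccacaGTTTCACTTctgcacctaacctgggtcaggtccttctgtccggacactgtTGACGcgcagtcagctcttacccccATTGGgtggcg
H2-D1: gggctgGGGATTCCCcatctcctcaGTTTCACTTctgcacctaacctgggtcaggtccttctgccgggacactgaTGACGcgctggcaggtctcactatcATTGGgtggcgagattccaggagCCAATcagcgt
Over the 110 bases aligned without gaps from the kappa B core to the H2-K1 start, 97 were identical (88.2%). Each motif was searched on both strands in the 250 bases before the start of 27025 genes. GGGATTCCC was found in 0.311% of those promoters and AAGTGAAAC in 0.352%. Of the 8 member promoters only those of H2-K1 and H2-D1 held either, and Tap2 had no promoter entry. The search took exact letters, so other forms of these sites were not counted. The H2-K1 and H2-D1 promoters are alike over the stretch shown, so their matches are not independent. A link between the matches and the ratios was not tested. TGACG was found in 17.9% and CCAAT in 34.5% of all promoters. The matches did not overlap one another. A match describes the letters and does not show that a factor was bound.

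H2-D1 was read by 3 usable probe sets in experiment 1. Probe set M69068_f_at read 1653 in the wild type and 4020.0 in the transgenic sample, M69069_f_at read 574 and 1969.8, and x00246_f_at read 927 and 3807. Each was more than 2-fold higher, at 2.43-fold, 3.43-fold and 4.11-fold. In experiment 2 the brighter H2-D1 probe set read 4280.3 in the wild type and 6799.6 in the transgenic sample (1.59-fold), and the dimmer 1684 and 2134 (1.27-fold). M69069_f_at and that dimmer probe set were made from the same GenBank entry, and gave 3.43-fold in experiment 1 and 1.27-fold in experiment 2. A further Mu11K A probe set of that entry, M69069_i_at, was below the floor in both genotypes (39.5 in the wild type and 5.9 in the transgenic sample). Probe set x00246_f_at shares its entry with the remaining U74A probe set of H2-D1, which was below the floor in both genotypes (52.9 and 79.3). The mean log2 ratio of H2-D1 was 1.70 in experiment 1 and 0.50 in experiment 2.

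H2-K1 gave a similar picture. In experiment 1 its probe set m69070_f_at read 435 in the wild type and 1654 in the transgenic sample (3.80-fold), and u47329_f_at read 1478 and 3719 (2.52-fold). In experiment 2 the brightest probe set read 1469 and 2418 (1.65-fold) and the next 388 and 546 (1.41-fold), again higher in the transgenic sample. The dimmest H2-K1 probe set read 140.8 in the wild type and 143.3 in the transgenic sample, a log2 ratio of 0.02. It was the only usable heavy chain probe set without the suffix f, with which Affymetrix marks probe sets that can match several members of a sequence family, and its level was close to the floor. The mean log2 ratio of H2-K1 was 1.63 in experiment 1 and 0.41 in experiment 2.

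The 5 usable heavy chain probe sets of experiment 1 were all 2-fold higher or more, where 4.56% of the usable probe sets of Mu11K A and 6.15% of Mu11K B were. With 1 probe set of Psmb9, 6 of the 14 usable member probe sets of experiment 1 were, against 5.32% of all usable probe sets of that experiment. None of the 14 of experiment 2 reached 2-fold, where 0.971% of U74A probe sets did. No member probe set was 2-fold lower, where 11.7% of Mu11K A, 13.9% of Mu11K B and 0.563% of U74A probe sets were. Because all 5 of experiment 1 and 4 of the 5 of experiment 2 were family probe sets, these intensities can include transcripts of related class I genes. Without family probe sets, a choice made after seeing the data, neither heavy chain gene was measured in experiment 1.

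B2m encodes beta-2-microglobulin, the light chain shared by class I molecules, and lies on chromosome 2, apart from the MHC on chromosome 17. It was read by 1 probe set per experiment, made from the same GenBank entry, of which only that of experiment 1 was a family probe set. Its intensity was 4659 in the wild type and 7688 in the transgenic sample of experiment 1 (1.65-fold), and 3469 and 4223 in experiment 2 (1.22-fold). B2m was thus higher in the transgenic sample of both pairs, by less than the heavy chain genes. Its promoter is shown because it holds an interferon-stimulated response element of another form, GAAANNGAA, which 7.16% of promoters held and no other member promoter did. The stretch is chr2:122147542-122147644 on the plus strand of GRCm38.p6 (RefSeq), with that element, TGACG and the CCAAT box (ATTGG) in capitals.
B2m: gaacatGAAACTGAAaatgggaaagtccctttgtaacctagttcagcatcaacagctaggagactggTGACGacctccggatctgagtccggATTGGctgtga

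Tap1 and Tap2 encode the partner chains of the peptide transporter, and Tapbp encodes tapasin. Tap1 read 942 in the wild type and 1535 in the transgenic sample of experiment 1 (1.63-fold), and 1774 and 1852 in experiment 2 (1.04-fold). Its other U74A probe set was below the floor in both genotypes. Tap2 read 1859 in the wild type and 2477 in the transgenic sample of experiment 1 (1.33-fold higher). In experiment 2 it read 1619 and 1387 (1.17-fold lower). The direction of Tap2 thus differed between the experiments, and Tap1 was nearly equal in both genotypes of experiment 2. Tapbp was 1.34-fold higher in experiment 1 (2725 against 3655). Its 3 probe sets of experiment 2 disagreed, at 1173 against 1267, 700.4 against 569 and 435 against 458, wild type first. Their mean log2 ratio was -0.04, which turned to 0.02 under median scaling and 0.11 with the brightest probe set.

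Psmb8, Psmb9 and Psmb10 encode the catalytic subunits that replace the standard ones in the immunoproteasome. Psmb8 read 4030.1 and 5894 on Mu11K A and 6097 and 9099 on Mu11K B, wild type first, so that its 2 probe sets of experiment 1 gave 1.46-fold and 1.49-fold. In experiment 2 it read 8315 and 9156 (1.10-fold). Psmb10, which lies on chromosome 8, read 749.9 and 1162 in experiment 1 (1.55-fold) and 1899 and 2302 in experiment 2 (1.21-fold). Psmb8 and Psmb10 were thus higher in the transgenic sample of both pairs. Psmb9 read 744 and 1667 on Mu11K A (2.24-fold) and 1338 and 2324 on Mu11K B (1.74-fold). In experiment 2 it read 1623 in the wild type and 1546 in the transgenic sample, or 1.05-fold lower. Psmb9 had the third-largest mean ratio of the group in experiment 1 and the second-lowest in experiment 2, and both of its Mu11K probe sets were family probe sets while its U74A probe set was not.

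**Figure D2:**
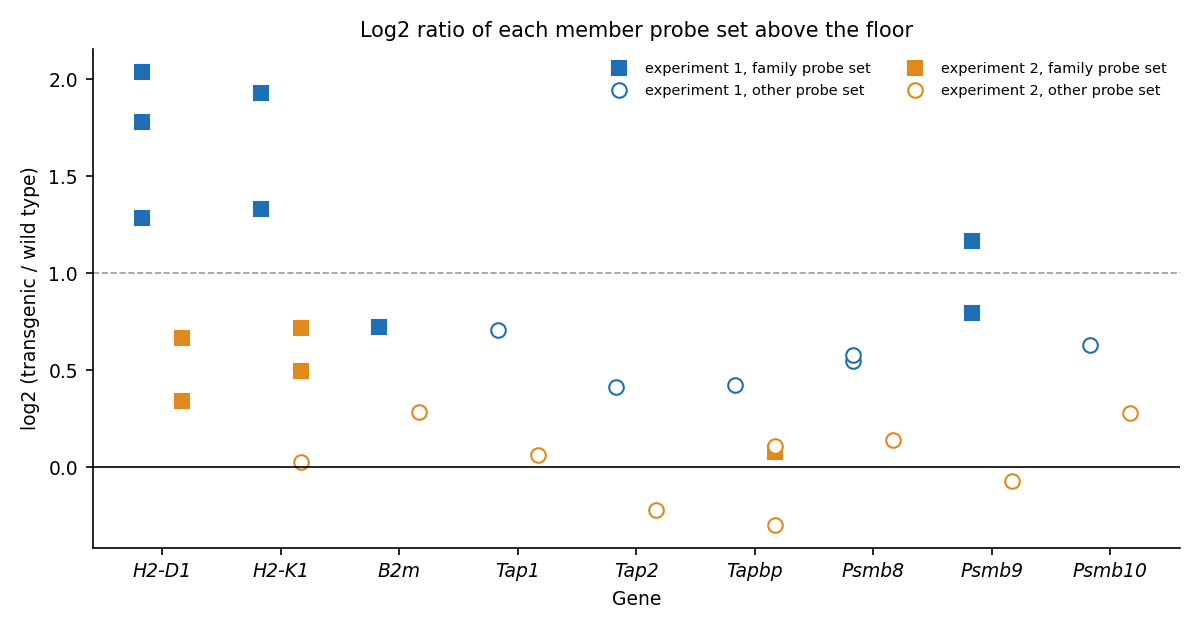
Log2 ratio of transgenic over wild type for each of the 28 usable member probe sets, by gene, for experiment 1 (blue) and experiment 2 (orange); filled squares are family probe sets, open circles are other probe sets, and the dashed line marks 2-fold. The 6 points past 2-fold are family probe sets of experiment 1 and belong to H2-D1, H2-K1 and Psmb9.

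Psmb9 and Tap1 are neighbours on chromosome 17, next to Psmb8 and Tap2, and are read from a shared region in opposite directions. The 225 bases between the RefSeq starts are shown because 1 stretch of DNA serves both genes. It is chr17:34187331-34187555 of GRCm38.p6 on the plus strand, which is the strand of Tap1, with a CCAAT box, a GC box (CCGCCC, which is GGGCGG on the other strand) and TGACG in capitals.
Tap1 and Psmb9: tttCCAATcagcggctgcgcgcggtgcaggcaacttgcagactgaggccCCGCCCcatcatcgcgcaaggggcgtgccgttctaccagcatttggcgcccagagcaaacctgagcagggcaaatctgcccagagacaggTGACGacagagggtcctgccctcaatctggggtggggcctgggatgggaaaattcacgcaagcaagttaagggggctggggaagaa
GGGCGG was found in 32.9% of all promoters. The log2 ratios of the pair were 0.70 for Tap1 and 0.98 for Psmb9 in experiment 1, and 0.06 and -0.07 in experiment 2.

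Whether a member differed between genotypes over both experiments was tested with limma on the 2 log2 ratios of each gene, with Benjamini-Hochberg adjustment over 3237 genes. None of the 9 members passed at an adjusted p of 0.05, where 0.154% of the genes tested passed as higher and 0.0% as lower. Of the 9, 2 had an unadjusted p under 0.05, both as higher, where 2.5% of the genes tested did as higher and 3.92% as lower. H2-D1 had a mean log2 ratio of 1.10 ± 0.38 (limma SE, n = 2 experiments; unadjusted p = 0.0116, adjusted p = 0.649, limma), higher in 2 of 2 experiments. H2-K1 had 1.02 ± 0.38 (limma SE, n = 2; unadjusted p = 0.0179, adjusted p = 0.715, limma), higher in 2 of 2. They ranked 32 and 45 of 3237 by mean log2 ratio. The means were 0.50 ± 0.34 for B2m, 0.46 ± 0.37 for Psmb9, 0.45 ± 0.34 for Psmb10, 0.38 ± 0.35 for Tap1, 0.35 ± 0.34 for Psmb8, 0.19 ± 0.34 for Tapbp and 0.10 ± 0.35 for Tap2 (limma SE, n = 2 experiments; adjusted p from 0.863 to 0.978). No alternative processing brought a member past the threshold, and the lowest adjusted p was 0.108 for H2-D1, under median scaling, with 0.999 as the highest. For H2-K1 the range was 0.181 to 0.999.

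All 9 members had a log2 ratio above 0 in experiment 1, as did 46.9% of the genes tested, and 6 of 9 in experiment 2, against 46.6%. H2-D1, H2-K1, B2m, Tap1, Psmb8 and Psmb10 were higher in both experiments (6 of 9), against 23.9% of the genes tested. H2-D1 and H2-K1 were past 2-fold in experiment 1, as were 5.65% of the genes tested, and none of the 9 in experiment 2, against 0.989%. Tap2, Tapbp and Psmb9 had opposite signs, and none was lower in both, against 30.4%. The members were chosen with earlier results of these data known, so these counts describe the members and are no test. The member medians were 0.70 and 0.14 in experiments 1 and 2, and the medians over all genes tested were -0.05 and -0.02. Under median scaling the median of all genes in experiment 1 became 0.30, while that of the members became 1.04.

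H2-D1 had the largest log2 ratio and H2-K1 the next largest in both experiments, and Tap2 had the lowest in both. The order of the members between them was not the same. Psmb9 had 0.98 in experiment 1, below only H2-D1 and H2-K1, and -0.07 in experiment 2, above only Tap2. Across the 9 genes, which share the same arrays and are not independent replicates, Pearson's r between the 2 sets of log2 ratios was 0.743 and Spearman's rho 0.700. The values over all genes were 0.178 and 0.109. The values of the 9 genes include H2-D1 and H2-K1, which were the largest in both experiments and were read mostly by family probe sets. No such value was calculated for the members without these 2 genes, so the likeness of the other 7 was not tested. The mean log2 ratio of H2-D1 and H2-K1 exceeded the mean of the other 7 members by 1.03 in experiment 1 and by 0.40 in experiment 2, a difference that was not tested. The SD among the 9 members was 0.49 in experiment 1 and 0.24 in experiment 2, and over all genes it was 0.78 and 0.33.

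**Figure D3:**
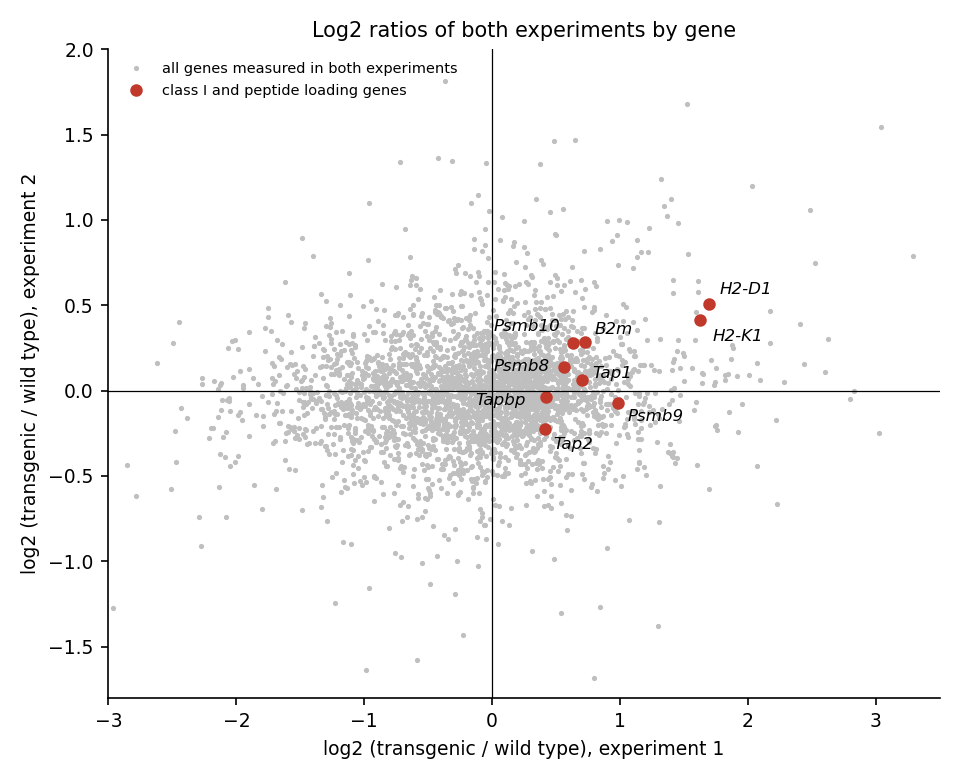
Log2 ratio of transgenic over wild type in experiment 1 (horizontal) and experiment 2 (vertical), with 1 point per gene, for the genes measured in both experiments (grey) and the 9 members (red, labelled); 9 genes lie outside the plotted range. All 9 members lie to the right of 0 in experiment 1, and H2-D1 and H2-K1 lie farthest to the right, at 1.70 and 1.63.

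Among the 2610 other genes above the floor on all arrays, those with the pair of log2 ratios closest to H2-K1 were H2-Ab1, Elovl1 and Ptcra, at Euclidean distances of 0.062, 0.126 and 0.169 over the 2 experiments. The same 3 genes were closest to H2-D1, at 0.117 for H2-Ab1, 0.117 for Ptcra and 0.239 for Elovl1. H2-Ab1, which encodes an MHC class II chain, had log2 ratios of 1.59 and 0.46. Ptcra had 1.61 and 0.58; its product pairs with the beta chain in the receptor of pre-T cells. Elovl1, a fatty acid elongase gene, had 1.59 and 0.29. H2-Ab1 is also 1 of the B cell markers and Ptcra 1 of the double-positive markers described further on. With only 2 values per gene this likeness is a description of these arrays.

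Other class I and class I-like genes differed in direction. Of 25 listed, 10 were measured and 6 in both experiments, of which 1 was higher and 3 lower in both, and 0 passed in limma, with 1 higher and 1 lower at an unadjusted p under 0.05. None of the genes passed in the other pathway lists either. The medians of the 6 were -0.44 and -0.08, and the first became -0.20 after quantile and loess and -0.05 after median scaling. Of the 4 measured in experiment 2 alone, H2-Q4 (0.64), H2-Bl (0.47) and H2-T18 (0.17) were above 0 and Mr1 (-0.22) below; they are named after their values were seen. H2-Q1, a non-classical class I gene, had log2 ratios of 1.42 and 0.57. Its intensities were 137.3 and 366 in experiment 1 and 1575 and 2337 in experiment 2, wild type first. Without family probe sets H2-Q1 was not measured in both experiments, so these values can include transcripts of related class I genes. H2-M3, which presents formylated peptides, had 0.66 and -0.11. The lipid-presenting genes Cd1d1 and Cd1d2 were at the other end, with Cd1d1 at -1.12 and -0.05. Cd1d2 was at least 5.68-fold lower in experiment 1, where the transgenic sample was at the floor, and 1.49-fold lower in experiment 2.

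A further 14 probe sets were annotated to several class I genes at once, and therefore name no gene. Of these, 12 were above the floor, and 11 of the 12 were higher in the transgenic sample. The 4 on Mu11K A had log2 ratios from 0.71 to 1.99 with a median of 0.99. The 8 on U74A ran from -0.16 to 1.28 with a median of 0.77, and 7 of them were higher. The largest on U74A read 2119.6 and 5165 (2.44-fold) and 2426 and 5572 (2.30-fold), wild type first, and were both annotated to the same 3 genes of the T region. Both ratios were above 2-fold on an array type where 0.971% of usable probe sets were, and above every single-gene member probe set of experiment 2. Of the 14, 3 listed H2-K1 or H2-D1 among other genes, and the 1 of them above the floor read 2784 in the wild type and 4994 in the transgenic sample (1.79-fold). Counting it for both heavy chain genes, a choice made after seeing the data, gave log2 ratios in experiment 2 of 0.62 for H2-D1 and 0.52 for H2-K1.

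A list of 13 genes joined the loading complex with general folding and transport genes of the endoplasmic reticulum. Of these, 7 were measured in both experiments, 1 higher and 2 lower in both, and 0 had an unadjusted limma p under 0.05. Their medians were -0.51 and -0.08, the first of which became -0.17 under median scaling. P4hb, a protein disulfide isomerase gene, had log2 ratios of 0.15 and 0.54, and Sec61a1, a subunit of the protein-conducting channel, had 0.68 and -0.18. Canx, which encodes the chaperone calnexin, had -1.15 and -0.10, and its mean of -0.62 became -1.08 without Mu11K A and -0.39 without Mu11K B. Uggt1, the glucosyltransferase that checks glycoprotein folding, had -1.11 and -0.08. The loading complex genes Pdia3 (-0.51 and 0.39) and Calr (0.37, measured in experiment 1 alone) are named after their values were seen. The median of Tap1, Tap2 and Tapbp in experiment 1 was 0.42, and its difference from this mixed list was not tested.

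The standard catalytic subunits that the immunoproteasome subunits replace include Psmb6, at 0.25 and 0.52, and Psmb7, at 0.55 and 0.23, while Psmb5 was measured in experiment 2 alone, at -0.04. Both of the 2 measured in both experiments were higher in both. Of 10 other 20S core subunits, 5 were higher and 0 lower in both, with medians of 0.37 and 0.12. Under median scaling 9 were higher in both and the first median was 0.70. At the extremes of that list, Psma7 had 0.57 and 0.09, Psmb2 had 0.52 and 0.12, Psma2 had -0.09 and 0.14, and Psmb1 had -0.02 and 0.18. The immunoproteasome genes Psmb8, Psmb9 and Psmb10 had medians of 0.63 and 0.14. The activator gene Psme1, whose product opens the core particle, had 0.47 and 0.07, and Psme3, of another activator, had 0.98 and 0.00. The Mu11K arrays disagreed on Psme3, whose mean of 0.49 became 0.053 without Mu11K A and 0.93 without Mu11K B. The assembly factor gene Psmg1 had 0.14 and -0.09. Pomp and Psmg2, measured in experiment 2 alone, had 0.12 and 0.03. Of the 3 activator and assembly genes measured in both, 2 were higher in both, with medians of 0.47 and 0.00.

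Of 24 listed regulators of class I transcription and interferon signaling, 14 were measured in both experiments, 6 higher and 4 lower in both, with medians of 0.16 and 0.07. By unadjusted limma p under 0.05, 2 were higher and 1 was lower. The interferon regulatory factor gene Irf8 had log2 ratios of 1.05 and 0.99. Irf9, a subunit of the factor that binds interferon response elements, had at least 0.94, with the wild type at the floor, and 0.87. Nfya, a subunit of the CCAAT-binding factor, had -1.39 and 0.09, and the kinase gene Jak2 had -1.34 and -0.68. With a floor of 200 the mean of Irf8 went from 1.02 to 0.38, that of Nfya from -0.65 to -0.33 and that of Jak2 from -1.01 to -0.63. Among 24 listed interferon response genes 10 were measured in both experiments, 5 higher and 2 lower in both. Their medians were -0.05 and 0.49, and the first turned positive under quantile (0.13), median (0.21) and loess (0.12) scaling. Of these, 4 were higher at an unadjusted limma p under 0.05. Usp18 had 1.52 and 1.68 and Isg15 had 2.04 and 1.20, while Igtp had -0.74 and -0.55. Ifit2 had -1.78 or lower, with the transgenic sample at the floor, and 0.37. Usp18 and Isg15 passed in limma under quantile (adjusted p = 0.0118 and 0.0148) and median scaling (0.00296 and 0.00144), and no member gene did. The part of these genes in the class I ratios was not tested.

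**Figure D4:**
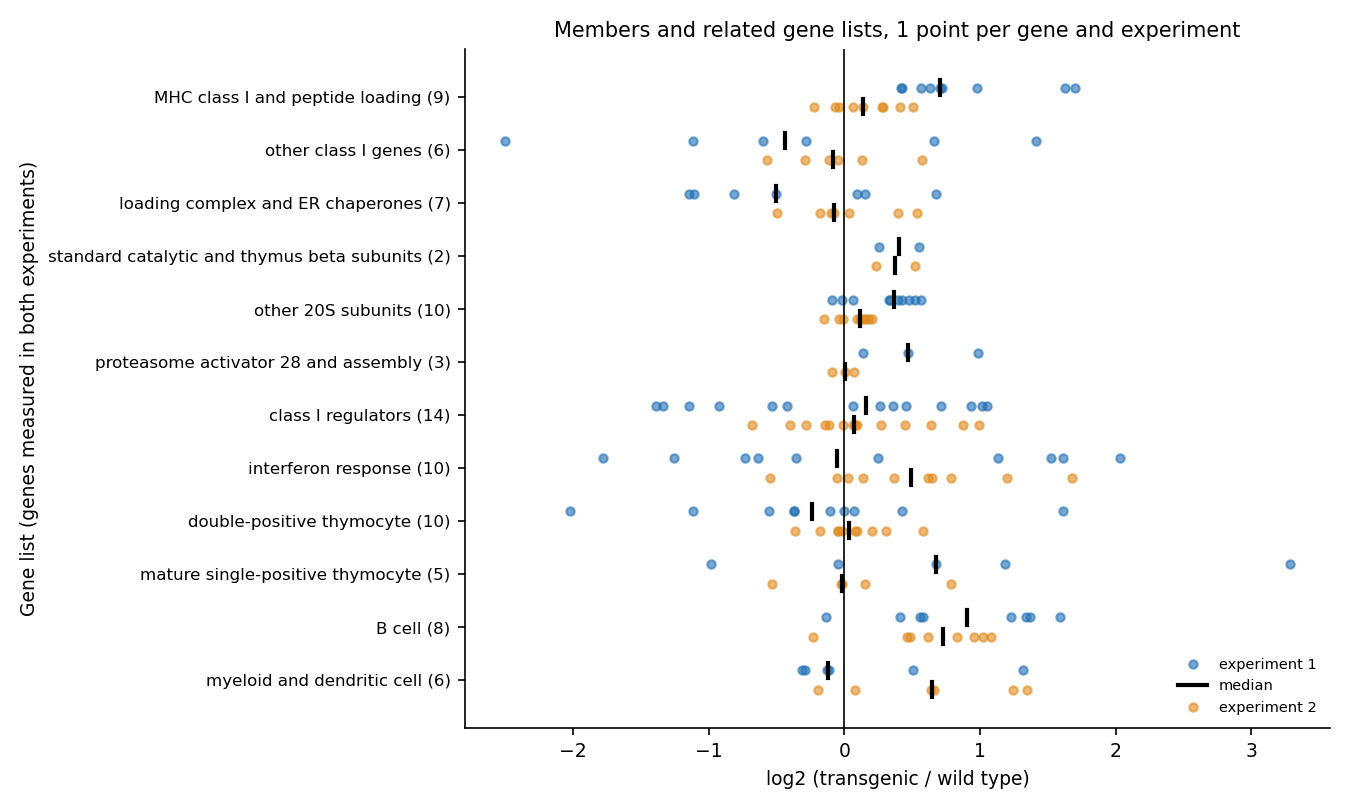
Log2 ratio of transgenic over wild type by gene list, with 1 point per gene for experiment 1 (blue) and experiment 2 (orange), black bars for the medians and the number of genes measured in both experiments in parentheses. The 9 members have medians of 0.70 and 0.14, the other class I genes -0.44 and -0.08, and the B cell markers 0.90 and 0.72.

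Markers of other cells that carry class I moved in part with these ratios. Of 15 B cell markers, which include MHC class II genes, 14 were on the arrays, 8 were measured in both experiments and 6 of the 8 were higher in both, with medians of 0.90 and 0.72, and 4 were higher at an unadjusted limma p under 0.05 with 0 after adjustment. Their summed intensity on Mu11K A, Mu11K B and U74A was 5845, 15329 and 16968 in the wild type and 9683, 25480.3 and 19846 in the transgenic samples. The 6 B cell markers higher in both were Ighm, Blk, Cd74, H2-Aa, H2-Ab1 and H2-Eb1. Cd79b (0.58 and -0.23) and Ms4a1 (-0.14 and at least 0.83, with the wild type at the floor) had opposite signs. Pax5, measured in experiment 2 alone, had -0.14. The B cell genes Cd22, Ebf1 and Vpreb3 were below the floor on all arrays that carried them. Cd79a was at 100.6 and 177.3 in experiment 2, wild type first. Of 16 markers of mature single-positive thymocytes, 5 were measured in both experiments, 2 higher and 2 lower in both, with medians of 0.68 and -0.02, of which the second turned positive under quantile, median and loess scaling. Their summed intensity was 4779 and 6993 on Mu11K A and 12217 and 12356 on U74A, and S1pr1 was below the floor. By unadjusted limma p under 0.05, 1 of these markers was higher and 1 lower. Socs3 (3.29 and 0.79) and Itgb7 (1.18 and 0.15) were higher in both experiments. Emb (-0.99 and -0.53) and Ms4a6b (-0.04 and -0.02, or lower, with the transgenic sample of experiment 2 at the floor) were lower in both. Of 14 myeloid and dendritic markers, 6 were measured in both experiments, 2 higher and 1 lower in both, with medians of -0.12 and 0.65, of which the first turned positive under the same 3 scalings. Their sums ranged from 812 to 4450 in the wild type and from 842 to 5423 in the transgenic samples. Itgam, Adgre1 and Fcgr3 were below the floor on all arrays that carried them. Of 10 markers of double-positive thymocytes, 2 were higher and 4 lower in both, with medians of -0.24 and 0.03, and under median scaling the counts became 5 and 0 and the first median 0.22. By unadjusted limma p under 0.05, 1 of the 10 was higher and 1 lower. The highest mean of these was that of Ptcra, with 1.61 and 0.58, and the lowest that of Rag2, with -2.02 and 0.08. The single-positive marker Socs3 passed in limma under quantile and median scaling, and the myeloid marker Ctss under median scaling. Of 9 natural killer markers only Gzma, a granzyme gene, was above the floor, at log2 ratios of 2.49 and 1.06, and the defining genes Klrb1c, Klrd1, Klrk1 and Ncr1 were below it. Of 5 erythroid markers measured in both experiments, 2 were higher and 2 lower in both. The globin genes Hba-a1 (1.90 and 2.76) and Hbb-b2 (3.04 and at least 1.54, with the wild type at the floor) rose, with adjusted p = 0.0154 and 0.0399 in limma, and under loess scaling Hba-a1 alone passed. Car2 (-0.98 and -1.64, or lower) and Gata1 (-0.52 and -0.07, or lower) were the lower ones and did not pass. For both genes the transgenic samples were at the floor in both experiments. Slc4a1 had 0.10 and -0.09 or lower, with the transgenic sample of experiment 2 at the floor. Of the epithelial and stromal markers, Krt5, Krt8, Krt18 and Epcam were below the floor on all arrays that carried them. Col1a1, measured in both experiments, had -0.21 or lower, with the transgenic sample at the floor, and -0.02. The part of these cells in the class I ratios was not tested.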

How the data were processed

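RNA of sorted double-positive thymocytes was measured on 6 arrays, 3 per genotype. The deposited values are linear intensities of the probe sets. Microarray Analysis Software versions 4 and 5 are named in the series text and MAS5 in the submitters' processing notes for U74A. The scaling target is not given in the sources used here. Control probe sets were left out, as were 21 Mu11K A probe sets with no wild-type value. Arrays were scaled to a 2% trimmed mean of 500 with a floor of 100. Genes were named from the platform annotation through probe sets with 1 symbol, checked against RefSeq GRCm38.p6, which changed 0 names. A single symbol was given for 5530 (Mu11K A), 2001 (Mu11K B) and 10833 (U74A) probe sets, several for 197, 27 and 396, and none for 781, 4512 and 1193. A gene's usable probe sets were averaged within an experiment, the A and B arrays counting as 1 replicate. limma 3.58.1 (R 4.3.3) tested the log2 ratios of the 2 experiments, paired by experiment, against 0, two-sided. On simulated data with the same change in both experiments, limma recovered 40.1% of 2-fold and 99.3% of 4-fold changes. Real changes were not equal in this way: the member median was 0.70 for experiment 1 but 0.14 for experiment 2. The recovery rates therefore do not tell how often changes such as those of the members would pass. The prior of limma, a spread shared over genes, had 12.1 degrees of freedom, so p-values rest mostly on it. They set the mean ratio mainly against that shared spread and to a lesser degree against a gene's own disagreement between the 2 experiments. They do not measure the spread between mice. Of the deposited values used, 17.3% to 29.2% were negative on the Mu11K arrays and 0% on U74A. Array type, this property of the deposited values and pooled samples all differ between the experiments and cannot be told apart. No test compared the samples of 1 array type. The number of arrays limits the precision. Alternatives changed the floor, filter, scaling, probe sets and pairing and left out arrays. All members are described. For a related list, all measured genes are named up to 6, otherwise the 2 highest and 2 lowest means. Ide, which is no class I gene, was taken off the class I list after its values were seen. The members and lists were chosen with earlier results of these data known.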

Additional observations from a re-analysis of the deposited data

Results flagged for a closer look

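Tap2, Tapbp and Psmb9 had log2 ratios of opposite sign in the 2 experiments, at 0.41 and -0.22 for Tap2, 0.42 and -0.038 for Tapbp and 0.98 and -0.070 for Psmb9. Each experiment had 1 comparison, so the difference between them was not tested.

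Probe sets annotated to several class I genes were not part of the gene-level comparison, and their highest log2 ratios were 1.99 on Mu11K A and 1.28 on U74A, where the transgenic sample was the higher one.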

How the results depend on the processing

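No member gene passed in limma under any of the alternatives tested, and the mean log2 ratio of each of the 9 stayed above 0 in all of them that gave a value. The count of members higher in both experiments, 6, was 3 when Mu11K A (replicate 1) was left out and 3 without family probe sets, since 5 members were then measured. It was 5 of 7 without Mu11K B (replicate 2). Leaving out U74A (replicate 3) leaves 1 experiment and no test. The 5 genes that passed as higher became 0 with a floor of 50, without a filter and without family probe sets, 1 with the brightest probe set, 2 with only values over the floor in every sample, 12 after quantile and 21 after median scaling, and 0 to 3 when Mu11K A or B was left out. The 0 genes lower became 1 with a floor of 200, 3 after quantile and 5 after median scaling. With no replicate block the count of higher genes was 0. That unpaired fit pools levels of different array types, and the labels give no replicate numbers. Probe sets 2-fold higher numbered 368 on Mu11K A and 528 on Mu11K B after median scaling, and 2-fold lower 237 and 247, against 177, 220, 455 and 498. Loess gave 307 lower on Mu11K B. The mean log2 ratio of Psma2 turned to -0.030 (quantile) and -0.040 (loess) and ranged from -0.094 to 0.025 with 1 array type left out. That of Psmb1 turned to -0.067 without family probe sets and ranged from -0.067 to 0.23 with 1 array type left out. Their causes were not tested. The choice without family probe sets and the use of probe sets of several genes were added after seeing the data. Values close to the floor, such as the dimmest H2-K1 probe set, carry little signal over background.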
